A study of Mus musculus with 4 samples.

Results

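The genes described here are 36 members of the nuclear receptor superfamily other than the retinoic acid receptors (RAR), the retinoid X receptors (RXR) and the stem cell factors Esrrb, Nr0b1 and Nr5a2. They were chosen by symbol from a fixed list, and all 36 were found among the 23420 genes of the count tables. RNA was sequenced from wild type E14 mouse embryonic stem cells, grown feeder-free on gelatin with leukemia inhibitory factor; the protocols also describe embryoid bodies, which the sample labels do not name. The control group was 2 libraries at 0 h, and the treated group 2 libraries at 24 h of exposure to all-trans retinoic acid (ATRA) at 1 µM. Both groups carried the same wild type background. Time in culture and ATRA changed together, and no label tells if vehicle (dimethylsulfoxide) was given at 0 h or if replicates were separate cultures. The p-values below therefore rest on the spread between 2 libraries a group, possibly a technical spread only.

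Nuclear receptors are transcription factors with a zinc finger DNA-binding domain and a ligand-binding domain that exchanges corepressors for coactivators when a lipid-soluble ligand enters it. Some bind hormones, some sense fatty acids, oxysterols, bile acids or heme, and the orphan receptors have no firmly assigned natural ligand. Many of those in the first subfamily bind DNA as a heterodimer with RXR, the shared partner of RAR, and most recognise variants of the same short core motif. In stem cells leaving pluripotency, the orphan receptor Nr6a1 (germ cell nuclear factor) is known for silencing Pou5f1, and the COUP-TF receptors Nr2f1 and Nr2f2 are known as retinoic acid-induced genes of the early nervous system.

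Counts in genes came to between 11086233 and 31005634 per library, with the ATRA libraries the shallower. A count of 3, the limit that a count of 0 allows, stood for 0.094 to 0.309 CPM (read counts scaled to the TMM-adjusted library size), a limit that covers counting error only. The pluripotency markers that define the labelled cell type were abundant in the controls, where Pou5f1 stood at 1265 CPM and the summed level of all 8 markers at 2928 and 2987 CPM. With ATRA that sum was 975 and 1009 CPM. Markers of other cell types were present too: 12 endoderm markers summed to 30.4 and 31.2 CPM in the controls and 75.6 and 123.5 CPM with ATRA (Ttr at 0 in all libraries), and 8 neural markers to 401 and 340 against 315 and 429 CPM (Neurog2 at 0 in both controls). The 7 mesoderm markers summed to 188 and 161 CPM in the controls and 24.2 and 31.5 CPM with ATRA, and 8 fibroblast markers to 217 and 156 against 108 and 108 CPM. These sums are not corrected for GC content, and a few genes carry much of each. In the neural sum, means in the controls and with ATRA were 228 and 254 CPM for Nes and 104.5 and 14.9 CPM for Tubb3. Sox1 read 1.58 and 27.3 CPM, Pax6 18.6 and 50.9 CPM, and Dcx 0.364 and 4.55 CPM. In the fibroblast sum Col1a1 read 116.5 and 32.1 CPM (log2 fold change −1.86, and −0.14 GC-corrected), and Dcn 1.21 and 7.41 CPM. In bulk RNA, fewer cells of a type and less RNA per cell cannot be told apart.

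The receptors share the first zinc finger but not its base composition, and base composition matters for reading these libraries. Fold changes over all 14146 tested genes with a known transcript ran with transcript GC content (Spearman rho −0.75), and the ATRA libraries differed from each other along the same axis (rho −0.78 for the log2 ratio of ATRA replicate 2 to replicate 1). The DNA coding for the first finger, found in 34 of the 36 members by the spacing of its 4 cysteines, is shown for the 7 members called in either fit below. It is read from GENCODE M21 transcripts, 5′ to 3′, with the codons of those 4 cysteines in capitals.
Nr6a1: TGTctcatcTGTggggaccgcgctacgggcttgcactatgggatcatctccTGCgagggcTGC
Nr1d1: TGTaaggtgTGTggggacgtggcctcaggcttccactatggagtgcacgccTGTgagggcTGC
Nr1h2: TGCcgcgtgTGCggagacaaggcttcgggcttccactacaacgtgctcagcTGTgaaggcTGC
Nr4a1: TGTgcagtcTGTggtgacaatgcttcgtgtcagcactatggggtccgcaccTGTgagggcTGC
Nr2f1: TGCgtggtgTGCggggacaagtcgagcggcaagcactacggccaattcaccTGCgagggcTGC
Vdr: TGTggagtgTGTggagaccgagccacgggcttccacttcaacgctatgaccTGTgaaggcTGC
Pgr: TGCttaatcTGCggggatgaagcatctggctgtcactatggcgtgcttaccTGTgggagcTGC
Among these 7 the GC content of the stretch ranged from 55.6% in Pgr to 65.1% in Nr2f1, and that of the whole transcripts was 46.1% in Pgr and 60.2% in Nr2f1. Over the 34 members the finger ranged from 46.0% to 71.4% GC, and over all 36 the transcripts from 40.9% (Rora) to 67.3% (Nr2f6). Nr0b2 had no match, and it is known as a receptor without a DNA-binding domain. Nr1i3 had none in the transcript used.

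Of the 36 genes, 20 passed the expression filter and were tested, and 16 had too few reads. In the uncorrected fit 1 receptor, Nr1d1, fell and 0 rose, where the background was 1.13% of 14256 genes called in either direction, 0.723% higher and 0.407% lower (edgeR's quasi-likelihood test, adjusted p under 0.05, n = 2 against 2). At an unadjusted p under 0.05, 8 receptors were higher and 8 lower, against 18.9% and 22.8% of all tested genes (41.7% in either direction). With libraries scaled by DESeq2 size factors, 2 were higher and 3 lower, and the calls over all genes went from 103 higher and 58 lower to 232 and 371 (4.23% of genes). DESeq2's own Wald test called 4 higher and 6 lower, among 30.5% of all genes called (1777 higher and 2573 lower). A fit corrected for transcript GC content called 7 receptors. Nr6a1, Pgr, Vdr and Nr2f1 were higher and Nr1d1, Nr1h2 and Nr4a1 lower, where 8.56% of all genes were called higher and 7.70% lower (16.3% together). Without control replicate 1 or control replicate 2 the GC-corrected fit called 0 receptors, and 35 and 29 genes in all. At an unadjusted p under 0.05 the full GC-corrected fit had 5 receptors higher and 3 lower, against 19.7% and 18.5% of all genes (38.2% together). Without ATRA replicate 1 the uncorrected counts were 8 higher and 9 lower among 69% of genes called, and without ATRA replicate 2 they were 7 and 6 among 48.9%. Nr2c1, Nr2c2 and Nr3c1 (higher) and Nr2f6, Ppard and Thra (lower), which did not pass in either full fit, passed uncorrected without either ATRA library. Nr1d2, Nr3c2, Esrra, Nr1h3 and Nr1i3 passed without ATRA replicate 1 but not without replicate 2.

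**Figure D1:**
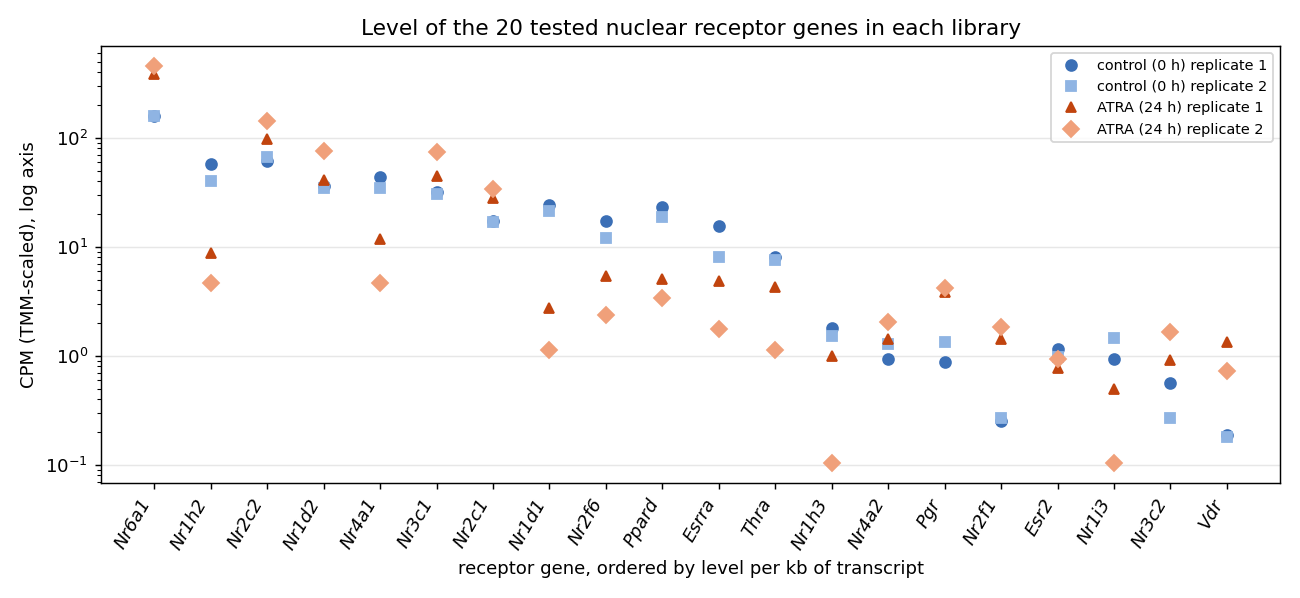
Level of each of the 20 tested receptor genes in each of the 4 libraries (y axis, CPM on a log scale), ordered along the x axis by mean level per kb of transcript. Nr6a1 stands above the rest in every library, and in all 20 genes the 2 control points lie on one side of the 2 ATRA points. Vdr, Nr2f1, Nr3c2, Nr1h3 and Nr1i3 passed the filter only through the group where they are higher.

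In each of the 20 tested receptors the libraries of the groups did not overlap, 10 higher with ATRA and 10 lower, and this held for 40.0% and 41.5% of all tested genes. Vdr, Nr2f1 and Nr3c2 passed the filter through the ATRA libraries only, and Nr1h3 and Nr1i3 through the controls only. In these the filter favoured the direction seen, so their lack of overlap was partly fixed in advance. The split followed base composition: of 9 receptors with a transcript GC content above 55%, 8 had a negative log2 fold change, as did 3216 of 3510 tested genes in that range. All 8 receptors at or below 50% GC had a positive value, as did 5655 of 6912 genes. Across the 20 receptors the rho of log2 fold change with GC content was −0.54, and after the correction, which is fitted on GC content, −0.22. These are descriptions across genes, which share the same 4 libraries. The correction left 8 receptors not overlapping upward and 6 downward, against 35.5% and 34.8% of all genes. The median log2 fold change of the tested receptors was 0.14 (0.11 corrected) and that of all tested genes −0.02 (0.01 corrected). The correction removes any group difference that runs with GC content, whatever its source.

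**Figure D2:**
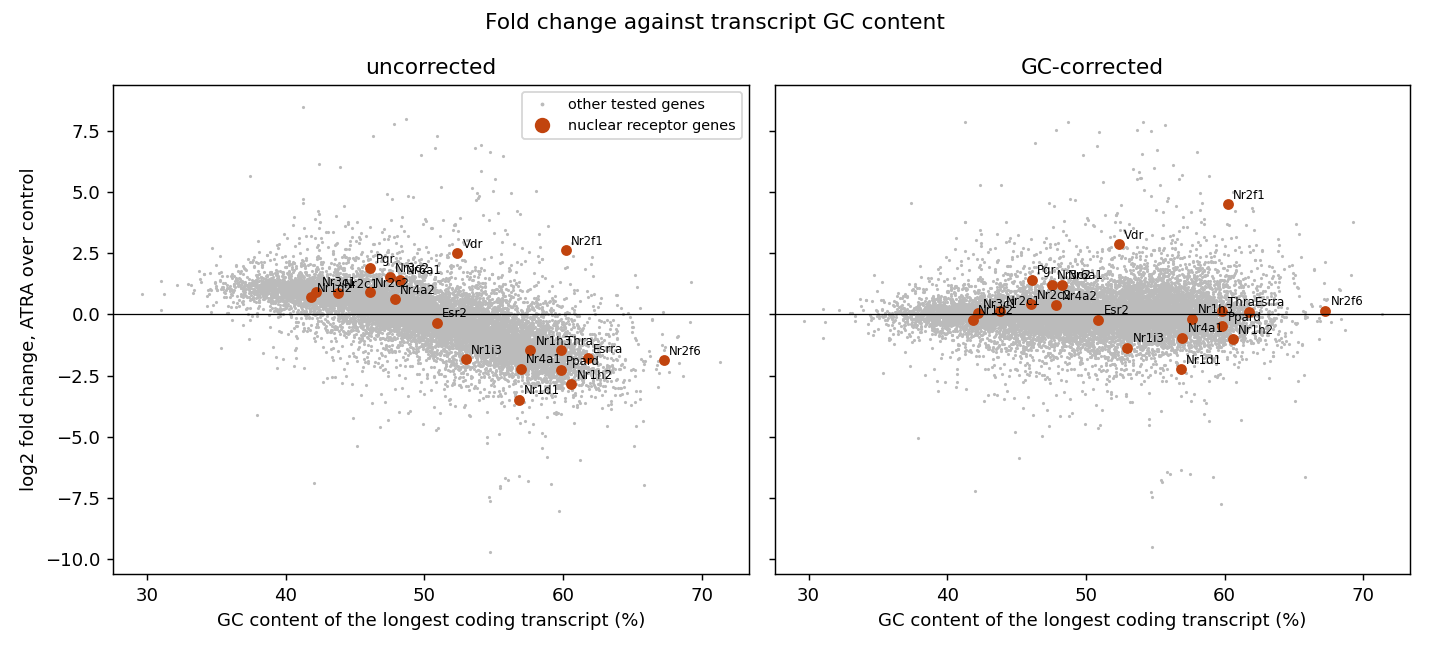
Log2 fold change of ATRA over control (y axis) against the GC content of the longest coding transcript in percent (x axis), uncorrected on the left and GC-corrected on the right. Grey points are tested genes and labelled orange points the 20 receptors. On the left most receptors follow the downward slope of the grey cloud, while Vdr and Nr2f1 lie above it and Nr1d1 below. On the right these 3 remain at the edges at 2.87, 4.51 and −2.25. Vdr and Nr2f1 passed the filter through the ATRA libraries only.

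Nr6a1 had the highest mean level of the 36 receptors per length of transcript over the 4 libraries, with 25.1 CPM per kb in the controls and 67.0 CPM per kb with ATRA. It encodes germ cell nuclear factor, an orphan receptor that represses pluripotency genes as embryonic cells differentiate. The gene lies at chr2:38723370-38927688 on the minus strand (GENCODE M21, GRCm38). The libraries read 160 and 158 CPM in the controls and 389 and 459 CPM with ATRA. Both ATRA libraries were well above both controls, and the replicates of each group stood close together. Its log2 fold change was 1.42 ± 0.26 (SE) with an adjusted p of 0.0586, and 1.21 ± 0.09 with 0.00555 in the GC-corrected fit. The value stayed between 1.17 and 1.52 with any single library left out of either fit. Its call in the GC-corrected fit was lost without control replicate 1 (adjusted p = 0.101) or control replicate 2 (0.109). Pou5f1, which its product is known to repress, was at −2.61 uncorrected with an adjusted p of 0.0621, and fell by 1.27 after GC correction. Of the 8 pluripotency markers 6 fell and 0 rose after correction, where 7.70% of all genes were called lower and 8.56% higher. Sox2 (−0.02) and Klf4 (−0.22) did not pass in that fit. A link between Nr6a1 and these values was not tested.

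RefSeq places a pair of transcription starts in the Nr6a1 gene. The window of 250 bases before and 50 after the downstream start held 3 copies of the receptor core motif, counted on both strands as AGGTCA or as its variant GGGTCA, its variant AGTTCA or its variant GGTTCA, and the upstream window held 0. The stretch with the 3 copies is at chr2:38784545-38784616 (GRCm38.p6, minus strand), with the copies in capitals, all in reverse orientation.
Nr6a1 downstream start: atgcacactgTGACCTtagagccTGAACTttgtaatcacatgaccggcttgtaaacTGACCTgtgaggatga
This window is shown because it held the most copies among the members called higher after correction. Windows of the others held 1 copy (Vdr), 1 and 0 (Nr2f1) and 0 (Pgr), and that of Nr3c2, not called, also held 3. At least 1 core motif was present in 17 of 44 windows of the 32 receptor genes with a RefSeq window, and in 43.7% of all 32851 windows. The share of all windows with 3 copies was not counted. Direct repeats of the motif spaced by 1, 2 or 5 bases, the arrangements that RAR and RXR heterodimers are known for, were in 0 of the 44 windows and in 0.588% of all windows. A match is only a run of letters, and the search says nothing of sites outside these windows.

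Among the heme-binding receptors, Nr1d1 fell with ATRA and its paralog Nr1d2 did not pass. Nr1d1 encodes REV-ERB alpha, a repressor in the negative limb of the circadian clock, and lies at chr11:98767932-98775333 on the minus strand. It read 24.2 and 21.2 CPM in the controls and 2.76 and 1.13 CPM with ATRA. Both ATRA libraries were far below both controls. The log2 fold change was −3.49 ± 0.48 with an adjusted p of 0.0430, the only receptor call of the uncorrected fit. After GC correction the libraries read 14.1 and 13.7 CPM against 2.999 and 2.76 CPM, and the change was −2.25 ± 0.20 (adjusted p = 0.00833). The ATRA replicates, apart by a log2 ratio of −1.28 before the correction, nearly coincided after it. The call was lost in edgeR's older quasi-likelihood fit (adjusted p = 0.0592), and in the corrected fit without control replicate 1 (0.117) or 2 (0.106).

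Nr1d2, which encodes REV-ERB beta and acts alongside Nr1d1, read 36.1 and 35.0 CPM in the controls and 40.9 and 75.2 CPM with ATRA. ATRA replicate 2 alone stood clearly above the controls. Its log2 fold change was 0.70 ± 0.37 uncorrected and −0.21 ± 0.13 corrected, and neither passed (adjusted p = 0.182 and 0.264). The RORs, activators that compete with REV-ERB for the same sites, were hardly detected: Rora had 14 control counts and 10 with ATRA, and Rorb 4 and 3. Of 13 tested clock genes that work with these receptors, 0 passed uncorrected, and the one with the highest mean CPM, Bhlhe40, was at 0.48 (adjusted p = 0.187). After correction Hlf, a PAR-domain clock output gene, fell by 2.48 (adjusted p = 0.0149), where 7.70% of all genes were called lower. Arntl, a known target of REV-ERB repression, was at 0.02 and −0.26 in the uncorrected and corrected fits and did not pass. Nfil3, of the same list, was at 0.04 and 0.94 and did not pass either (adjusted p = 0.929 and 0.0595). The list's medians were −0.39 and 0.06. A link between these genes and Nr1d1 was not tested.

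Part of Nr1d1 is transcribed opposite a neighbour that is also a receptor gene. Thra, for thyroid hormone receptor alpha, overlaps it tail to tail on chromosome 11, and 263 exonic bases are shared, 8.55% of those of Nr1d1 and 5.70% of those of Thra. Whether the counting used strand is unknown here, and the shared part makes both counts uncertain. Thra read 8.02 and 7.57 CPM in the controls and 4.31 and 1.13 CPM with ATRA. It was at −1.46 ± 0.58 uncorrected and 0.13 ± 0.28 corrected, and did not pass in either (adjusted p = 0.114 and 0.772). Thrb, for the beta receptor, had 8 counts against 7.

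The oxysterol receptors (LXR), which turn on cholesterol efflux and fatty acid synthesis as partners of RXR, were represented mainly by Nr1h2, the gene of LXR beta. In the controls its mean level per length of transcript, 24.5 CPM per kb before GC correction, was close to that of Nr6a1. The correction lowered the control values of Nr1h2 and raised those of Nr6a1 (to 173 and 167 CPM), so the closeness holds for uncorrected levels only. Nr1h2 lies at chr7:44549616-44553951 on the minus strand, and its transcript has a GC content of 60.6%. The libraries read 58.1 and 40.0 CPM in the controls and 8.77 and 4.64 CPM with ATRA. The groups were well separated, and the replicates within each differed visibly. The log2 fold change was −2.86 ± 0.44 with an adjusted p of 0.0522. After correction the libraries read 26.4 and 23.0 against 10.7 and 14.4 CPM, and Nr1h2 fell by 1.00 ± 0.20 (adjusted p = 0.0345). The uncorrected fall passed with DESeq2 size factors (0.0386) and with no count filter (0.0472). In the corrected fit it did not pass without control replicate 1 (0.274) or 2 (0.193).

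Nr1h3, the gene of LXR alpha, was sparse, with 58 and 34 counts in the controls against 14 and 1 with ATRA. It passed the filter through the controls only, and was at −1.45 ± 0.70 uncorrected and −0.17 ± 0.52 corrected (adjusted p = 0.160 and 0.833). Without ATRA replicate 1 it was at −3.97 uncorrected and passed (0.0133), at −1.83 corrected (0.392), and without ATRA replicate 2 at −0.75 uncorrected (0.292). Of 8 tested LXR target genes 0 passed uncorrected, where the median log2 fold change was −1.38. The gene with the highest mean CPM over the 4 libraries, the desaturase gene Scd1, was at 0.91 (adjusted p = 0.0808), and Apoe, the highest per kb, at −2.77 (0.05997). After correction 4 fell and 1 rose, with a median of −0.49. Those with the smallest p were the apolipoprotein gene Apoe (−1.15, adjusted p = 0.0110), the cholesterol exporter gene Abca1 (−1.28, 0.0159) and Scd1 (0.55, 0.0292), the last of which rose. The bile acid receptor gene Nr1h4 (FXR) had 7 counts against 6.

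Of the fatty acid receptors (PPAR), which also pair with RXR, only Ppard was abundant enough to test. It read 23.2 and 18.6 CPM in the controls and 5.09 and 3.40 CPM with ATRA, with no overlap between the groups. Its log2 fold change was −2.29 ± 0.38 (adjusted p = 0.0570), and −0.49 ± 0.28 after correction (0.251). The corrected libraries read 11.01 and 10.9 against 6.05 and 10.2 CPM, so that ATRA replicate 2 came back to just under the controls while replicate 1 stayed below. Without ATRA replicate 2 the corrected change was −0.84 and passed (0.00722), and without ATRA replicate 1 it was −0.09 (0.854). The fall also passed uncorrected with DESeq2 size factors (0.0439). Ppara, the receptor of hepatic fatty acid oxidation, had 10 counts against 14, and Pparg, the adipocyte receptor, 5 against 1. Of 9 tested PPAR target genes 0 passed uncorrected (Acadm, the highest by mean CPM over the 4 libraries, at −0.25, and Plin2, the highest per kb, at 0.29). Corrected, Acadm (−0.48, adjusted p = 0.0450) and Angptl4 (−1.49, 0.0474) fell and 0 rose, with medians over the list of −0.25 uncorrected and −0.50 corrected.

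**Figure D3:**
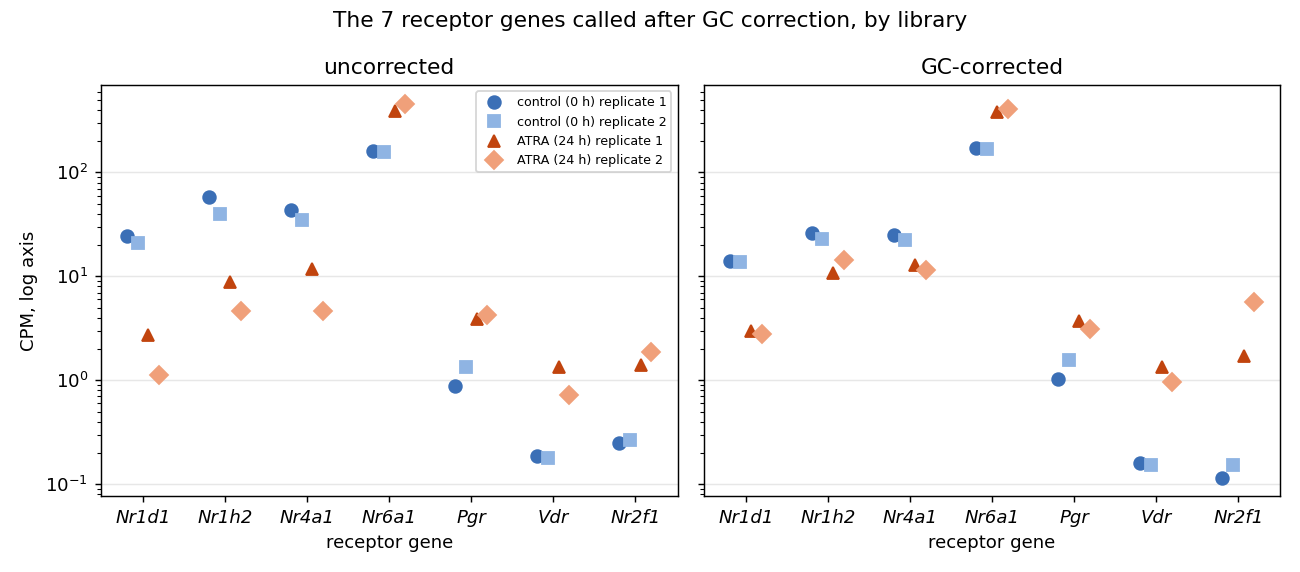
CPM of the 7 receptor genes called after GC correction (x axis), in each of the 4 libraries (y axis, log scale), uncorrected on the left and corrected on the right. The ATRA points of Nr1d1, Nr1h2 and Nr4a1 lie below both controls in both panels and those of Nr6a1, Pgr, Vdr and Nr2f1 above; the ATRA points of Nr1d1 and Nr4a1 draw together on the right and those of Nr2f1 move apart.

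The hormone receptors split into an abundant glucocorticoid receptor and several rare genes. Nr3c1, the glucocorticoid receptor gene, read 31.7 and 30.8 CPM in the controls and 44.6 and 75.0 CPM with ATRA. The replicates of the ATRA group were farther apart than the lower of them was from the controls. The log2 fold change of 0.93 ± 0.34 did not pass (adjusted p = 0.102), and after correction all 4 libraries lay between 41.0 and 43.9 CPM (0.05 ± 0.12, adjusted p = 0.765). With the mean GC content over coding transcripts in the correction, Nr3c1 was at 1.01 ± 0.29 (0.0724), so its corrected value depends on the GC measure.

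Vdr, the vitamin D receptor gene at chr15:97854425-97910630 on the minus strand, had 6 and 4 counts in the controls against 19 and 7 with ATRA. This made 0.188 and 0.178 CPM against 1.34 and 0.722 CPM, with both ATRA libraries above both controls. Summed over the libraries of a group the ratio was 5.93, with an exact counting interval at 95% from 2.77 to 13.8 that covers counting error only. The log2 fold change was 2.50 ± 0.60 (adjusted p = 0.0673), and Vdr rose by 2.87 ± 0.52 in the corrected fit (0.0294). It passed the filter through the ATRA libraries only, and the corrected call was lost without ATRA replicate 1 (0.0825), without control replicate 1 (0.247) and without control replicate 2 (0.217). Cyp24a1, the classical vitamin D receptor target, had too few reads to test, at 0.386 CPM in the controls and 0.193 CPM with ATRA.

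Pgr, the progesterone receptor gene at chr9:8899833-8968611 on the plus strand, had 28 and 30 counts in the controls against 55 and 41 with ATRA. Scaled for depth this was 0.878 and 1.34 CPM against 3.89 and 4.23 CPM. The ATRA replicates agreed closely, and both were above the controls. Pgr was at 1.89 ± 0.41 uncorrected (adjusted p = 0.0649) and rose by 1.42 ± 0.34 in the corrected fit (0.0477). That call lay just inside the threshold, and it was lost without control replicate 1 (0.335) or 2 (0.217). On another GC measure, the mean over a gene's coding transcripts, the rise was 2.29 (0.0282).

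Nr3c2, the mineralocorticoid receptor gene, had 18 and 6 counts in the controls against 13 and 16 with ATRA, and passed the filter through the ATRA libraries only. It was at 1.51 ± 0.59 uncorrected and 1.21 ± 0.54 corrected, and did not pass (adjusted p = 0.112 and 0.164). Among the estrogen receptors, Esr2 had 59 counts against 20 and was at −0.35 ± 0.46 (adjusted p = 0.561), and Esr1 had 1 count in the controls and 0 with ATRA. Of 10 tested target genes of thyroid, steroid and vitamin D hormones, the glucocorticoid-inducible kinase gene Sgk1 fell by 1.87 (adjusted p = 0.0430) and 0 rose. After correction 3 fell, Sgk1 (−2.04), the thyroid hormone and glucocorticoid-responsive factor gene Klf9 (−1.10) and the glucocorticoid receptor co-chaperone gene Fkbp5 (−0.52), and 0 rose. The list's median was −0.68 uncorrected and 0.00 corrected.

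The NR4A receptors are immediate early genes without a classical ligand, switched on within minutes by growth factor and cAMP signals. Nr4a1 (Nur77), at chr15:101254269-101274795 on the plus strand, read 43.5 and 34.7 CPM in the controls and 11.9 and 4.64 CPM with ATRA. Its log2 fold change was −2.22 ± 0.49 (adjusted p = 0.0651). Both ATRA libraries were below both controls, with replicate 2 the lower. After correction the libraries read 25.1 and 22.3 against 12.97 and 11.5 CPM, and Nr4a1 fell by 0.95 ± 0.16 (adjusted p = 0.0272). The corrected call was lost without control replicate 1 (0.273) or 2 (0.200). Nr4a2 (Nurr1), known for its part in dopaminergic neurons, had 59 counts against 40 and was at 0.63 ± 0.45 and 0.37 ± 0.37 (adjusted p = 0.306 and 0.493). Nr4a3 had 1 count against 2.

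The orphan receptors of the second subfamily were led by Nr2c2 (TR4) and Nr2c1 (TR2), which bind direct repeats and act mostly as repressors. Nr2c2 read 61.2 and 66.5 CPM in the controls and 97.2 and 143 CPM with ATRA, with both ATRA libraries higher. It was at 0.91 ± 0.30 uncorrected and 0.41 ± 0.12 corrected, and did not pass in either (adjusted p = 0.0886 and 0.0669), with 0.19 in a correction on mean transcript GC content (0.278). The DESeq2 Wald test passed it at 0.94 (0.0441). Nr2c1 read 17.1 and 16.7 against 27.8 and 34.0 CPM, and was at 0.87 ± 0.30 and 0.16 ± 0.17 (adjusted p = 0.0928 and 0.527). An overlapping gene on the other strand, Mrps25, shares 30.7% of the exonic bases annotated for Nr2c2. Mrps25 had 4624 control counts and 2407 with ATRA.

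Nr2f1, the gene of COUP-TF I at chr13:78188973-78199757 on the minus strand, had 8 and 6 counts in the controls against 20 and 18 with ATRA. This made 0.251 and 0.267 CPM against 1.41 and 1.86 CPM, with both ATRA libraries above both controls and close together. Over the summed libraries the ratio was 6.19, with an exact counting interval at 95% from 3.28 to 12.4. The log2 fold change was 2.62 ± 0.50 (adjusted p = 0.0596), and 4.51 ± 0.76 in the corrected fit, where Nr2f1 passed (0.0268). The corrected libraries read 0.116 and 0.155 against 1.70 and 5.68 CPM, so the correction moved the ATRA replicates apart. On the mean GC content of its coding transcripts the corrected value was 3.46. The gene passed the filter through the ATRA libraries only, and the corrected call was lost without control replicate 1 (0.192) or 2 (0.152). The antisense gene A830082K12Rik, which overlaps 2.42% of the exonic bases of Nr2f1, had 5 counts in the controls against 14 with ATRA.

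Nr2f2 (COUP-TF II), whose first finger is identical to that of Nr2f1 at 61 of 63 bases, the closest pair of the family, had 13 counts in the controls against 16 with ATRA and was not tested. Its ratio over the summed libraries was 2.81, with a counting interval from 1.27 to 6.34. Of the neural markers tested beside these genes, 2 rose and 1 fell uncorrected, and 4 rose and 1 fell corrected; their part in the result was not tested. Nr2f6 (EAR2), the COUP-TF relative with the highest transcript GC content, read 17.4 and 11.98 CPM in the controls and 5.44 and 2.37 CPM with ATRA. It was at −1.88 ± 0.49 uncorrected (adjusted p = 0.0707) and at 0.15 ± 0.20 corrected (0.606), where all 4 libraries lay between 6.64 and 7.99 CPM. Ocel1 on the opposite strand shares 54.4% of the exonic bases annotated for Nr2f6, and had 265 counts against 50.

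Hnf4a, a receptor gene of liver and visceral endoderm, had 8 and 7 counts in the controls against 4 and 2 with ATRA, 0.281 and 0.245 CPM on average. This was near the limit of detection. Of 12 endoderm markers 8 were tested, and 1 rose uncorrected and 7 corrected, Foxa1 the most (4.08 and 5.09). Over all tested genes 0.723% were called higher uncorrected and 8.56% corrected. The untested markers had few or no reads: Sox17 5 counts in the controls against 6 with ATRA, Afp 2 against 3, Apoa1 2 against 0 and Ttr 0 in all libraries. The part of endoderm cells in any receptor value was not tested. Hnf4g had 3 counts against 1. The neural stem cell receptor gene Nr2e1 (Tlx) had 1 count in the controls and 0 with ATRA, and the photoreceptor gene Nr2e3 had 2 and 0.

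Esrra, the estrogen-related receptor gene of mitochondrial metabolism, read 15.5 and 8.02 CPM in the controls and 4.88 and 1.75 CPM with ATRA. Neither group was tight. It was at −1.79 ± 0.59 (adjusted p = 0.0872) and at 0.10 ± 0.28 corrected (0.806). Esrrg had 9 counts against 10. Nr1i3, the xenobiotic receptor gene CAR, had 30 and 33 counts in the controls against 7 and 1 with ATRA. It passed the filter through the controls only, and was at −1.83 ± 0.69 and −1.36 ± 0.62 (adjusted p = 0.106 and 0.168). It shares 74.9% of its annotated exonic bases with Tomm40l on the opposite strand, which had 1816 counts against 451, and its count is uncertain for that reason. The steroidogenic factor gene Nr5a1 had 2 counts against 1, and the receptor without a DNA-binding domain, Nr0b2 (SHP), 5 against 0.

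**Figure D4:**
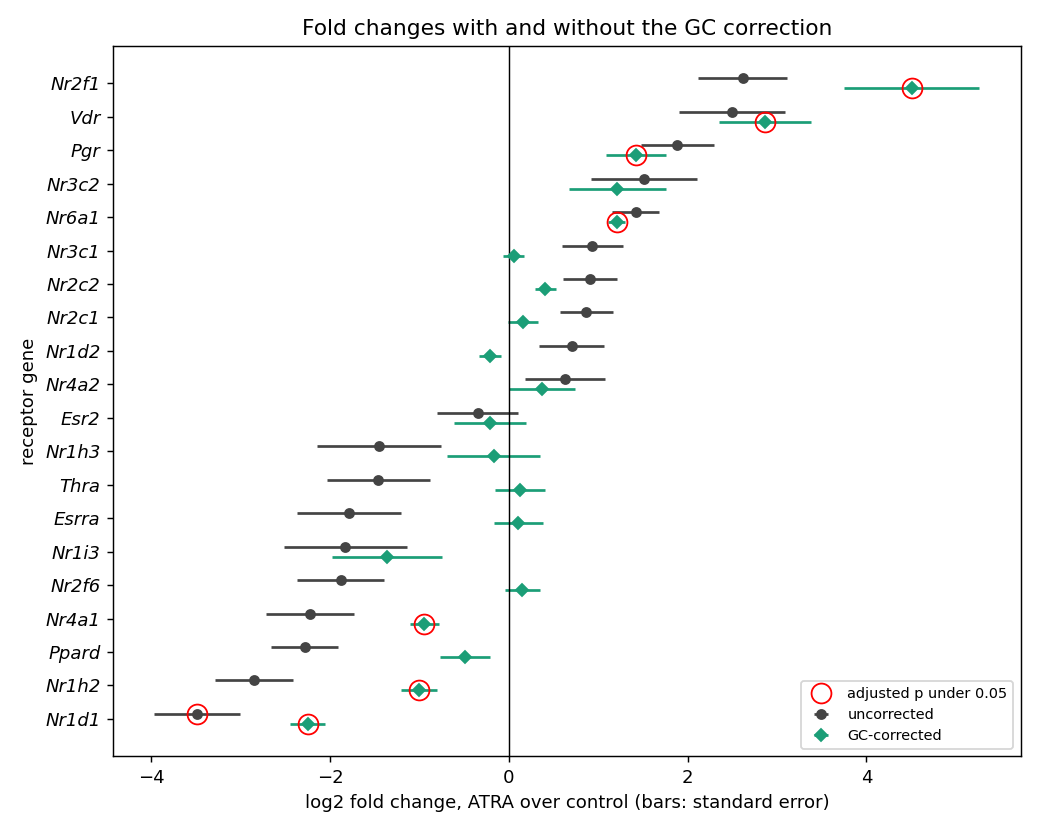
Log2 fold change of ATRA over control (x axis, bars show the standard error) for the 20 tested receptor genes (y axis), uncorrected as grey circles and GC-corrected as green diamonds. Red rings mark an adjusted p under 0.05: 1 uncorrected value (Nr1d1) and 7 corrected values. Thra, Esrra, Nr2f6 and Nr1d2 change sign between the 2 fits shown, but with the mean GC content over coding transcripts Thra (−0.17) and Nr1d2 (0.16) keep their uncorrected sign.

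The 16 receptors that were not tested had at most 10 counts in any library, and none reached the filter of 0.574 CPM in 2 libraries. The most counted were Nr2f2 (29 counts in all), Ppara and Rora (24 each). Between 29 and 36 of the 36 receptor genes had at least 1 count in a library, with all 36 seen in the deepest, control replicate 1. Per length of transcript, the 5 highest receptors over the 4 libraries were Nr6a1, Nr1h2, Nr2c2, Nr1d2 and Nr4a1, at 46.02, 13.95, 12.02, 10.04 and 9.28 CPM per kb. The order differed between the groups in these levels, which are not GC-corrected. In the controls the means were led by Nr6a1 (25.1), Nr1h2 (24.5), Nr4a1 (15.3), Nr2c2 (8.36) and Nr1d1 (8.33). With ATRA they were led by Nr6a1 (67.0), Nr2c2 (15.7), Nr1d2 (12.45), Nr3c1 (9.29) and Nr2c1 (8.29), and Nr1h2 and Nr4a1 stood at 3.35 and 3.24.

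**Figure D5:**
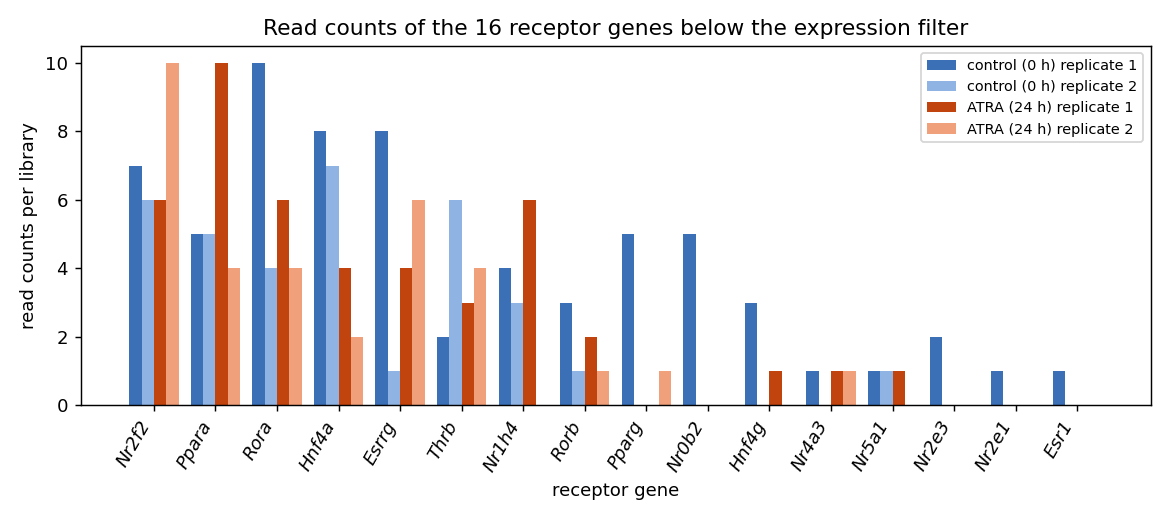
Read counts (y axis) of the 16 receptor genes below the expression filter (x axis) in each of the 4 libraries. No bar exceeds 10 counts, and the control libraries were sequenced more deeply than the ATRA libraries.

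Coregulators, the proteins that receptors recruit, mostly did not pass. Of 9 tested, the corepressor gene Nrip1 rose by 2.88 (adjusted p = 0.0271) and by 2.20 after correction (0.0161), and 0 fell in the uncorrected fit. The list's median was 0.14 and −0.02. Of the 9 receptors left out of the list, Rarb rose by 7.80 and Esrrb fell by 2.63, and after correction Nr5a2 also fell (−2.16).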

How the data were processed

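Groups and replicate numbers came from the sample titles, which give the ATRA dose as 1 µM (a treatment label gives a millimolar unit). The authors deposited whole-number read counts per gene symbol for each of the 4 libraries. Of tools, the submitters' processing notes list HTSeq 0.6.0, TopHat2 2.0.7, Cuffdiff 2.0.2 and Cufflinks 2.0.2, with mm10 as the build. Which annotation and strand setting served for counting is not given in the sources used here. Reads in no gene, 63.4% to 66.2% of a library, and ambiguous reads, 0.158% to 0.254%, were left out.

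The whole table was fitted in R 4.3.3 with edgeR 4.0.16: default expression filter (minimum count 10), TMM factors, robust quasi-likelihood F test, Benjamini-Hochberg adjustment over all 14256 genes, threshold 0.05, no covariate. Standard errors are the fold change over the square root of F. The GC-corrected fit adds, per library, a natural spline (5 degrees of freedom) of log2 CPM deviations on the GC content of the longest coding transcript (GENCODE M21, 21777 symbols matched directly and 1278 through an older symbol, 365 unmatched). Its curve came from robust regression (MASS 7.3.60.0.1) on genes of mean log2 CPM above 1, with GC content held within percentiles 1 and 99. Rarer tested genes, such as Vdr and Nr2f1, were corrected with a curve fitted without genes of their level. DESeq2 1.42.0 was an alternative. Promoter windows are RefSeq's (GRCm38.p6).

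On simulated counts for control against ATRA with the GC trend (13903 genes), the fit without correction found 33% of 2-fold and 66% of 4-fold changes. It made 1999 false calls, and the corrected fit found 60% and 97% with 2. The simulated trend was the correction's own fitted curves, with the dispersions of the corrected fit, so that fit was bound to do well. The simulation therefore cannot show that the correction suits these libraries, where 161 genes were called uncorrected and 2317 corrected. With no simulated trend both fits made 7 false calls. The members, lists and correction were chosen with earlier results of these data known. Some items are not reported here. Every member is accounted for; those called in either fit and the 5 highest per kb are given in full. In related lists up to 3 called genes, taken by p, are named, or else the most abundant by mean CPM. Arntl, Nfil3, Cyp24a1, Plin2, Pou5f1 and the marker genes singled out were chosen after their values were seen.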

Additional observations from a re-analysis of the deposited data

How the results depend on the processing

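The number of genes called over the whole table was 161, and it was 603 with DESeq2 size factors, 4350 with the DESeq2 Wald test, 2317 with the GC correction, 2105 with that correction on mean transcript GC content, and 86 in the older quasi-likelihood fit, the last 2 settings being added after seeing the data. Receptors called higher were 0, and 2, 4, 4 and 4 in the first 4 of these settings; receptors called lower were 1, and 3, 6, 3 and 3, with 0 in the older fit and 2 with no count filter. With a single library left out, with or without the GC correction, between 29 and 10289 genes were called, between 0 and 8 receptors higher and between 0 and 9 lower; these fits take the spread of the remaining library from the other group. By library left out (uncorrected, then corrected), the genes called were 125 and 35 without control replicate 1, 662 and 29 without control replicate 2, 10289 and 6663 without ATRA replicate 1, and 7302 and 5032 without ATRA replicate 2, where 5 receptors were higher in the corrected fit.

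The replicate numbers say nothing of shared cultures, and the deviations of same-numbered libraries correlated at 0.18 across genes (−0.05 after GC correction). With a replicate block 4401 genes were called, 4 receptors higher and 7 lower, and with the block and the GC correction 2641, 3 and 3, Pgr (adjusted p = 0.0505) being the receptor called without the block only.

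Sign changes occurred only under the GC correction. Esrra was at 0.10, 0.086 with the block and 0.12 on mean transcript GC; Nr1d2 at −0.21 and −0.21 with the block; Nr2f6 at 0.15, 0.15 with the block and 0.035 on mean transcript GC; Thra at 0.13 and 0.11 with the block. On mean transcript GC Nr1d2 was at 0.16 and Thra at −0.17, as signed without correction, and Nr3c1 at 1.01 against 0.05. With a library left out, corrected values of the opposite sign ranged from 0.12 to 0.38 for Esrra, −0.28 to −0.14 for Nr1d2 (−0.19 and −0.25 without control replicate 1 and 2), 0.11 to 0.25 for Nr2f6 and 0.20 to 0.35 for Thra, and stood at 0.022 for Esr2 and 0.18 for Nr1h3, and at −0.0019 for Nr2c1. The cause was not tested. Depth limits the 16 untested receptors and the values of Vdr, Nr2f1 and Pgr.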
